A study of Mus musculus with 4 samples.

Results

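The titin cap gene *Tcap*, the leiomodins *Lmod1*, *Lmod2* and *Lmod3* and the tropomodulins *Tmod1*, *Tmod2*, *Tmod3* and *Tmod4* were followed in the mouse cochlea after outer hair cell (OHC) ablation. All non-control probes that the array files list under one of these names were taken, which gave 8 probes for 8 genes, of 39429 probes and 29977 gene names on the array. Each gene had 1 probe with 1 spot. The RNA of 4 pools of cochleae was labelled with Cy3, and each pool had 1 Agilent array of the same slide. The pools came from untreated wild-type mice, from wild-type mice given diphtheria toxin (DT), from untreated mice of the *Prestin*-*hDTR* genotype (OHC-TRECK in the labels) and from such mice given DT, all on the B6J background, aged 5 weeks and pooled from 4 females and 4 males. The toxin dose was 50 μg/kg of body weight, 7 days before dissection, and no other treatment was given. In *Prestin*-*hDTR* mice, a fragment of the promoter of prestin (*Slc26a5*), the motor protein of OHCs, drives the human DT receptor, and these mice descend from 1 transgenic line. Where a gene has 4 values in a row, they stand in this order of groups, and the fourth array is also called that of the ablated cochleae. Since each group has 1 array, differences are given without a test, and how far they exceed the spread between pools is unknown. The small number of arrays limits their precision.

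Telethonin, the product of *Tcap*, joins the ends of neighbouring titin molecules at the Z-disc of striated muscle. Tropomodulins cap the slow-growing (pointed) end of actin filaments, and leiomodins are their relatives that start new filaments and act at the same end. *Lmod1* is known from smooth muscle, *Lmod2* from heart, *Lmod3* and *Tmod4* from skeletal muscle, *Tmod1* from red cells and heart, *Tmod2* from neurons and *Tmod3* from many tissues. OHCs are not muscle cells, but they hold much actin in their stereocilia, in the cuticular plate and under the lateral wall.

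The probes are shown because 1 probe stands for each gene, so that every value below is the signal of a single sequence. The first 30 of the 60 bases of each are given as the array files list them, in lower case, and the positions and strands of the probes follow in the mm9 build of those files.
*Tcap*: ctgggaatggcctgctcgggaacagatgga
*Lmod1*: caatgacattggaagccaaatggaactagt
*Lmod2*: aggttaagaaacaaccaaacaatatcctaa
*Lmod3*: acacgttcttcttctcagagtttgactgcc
*Tmod1*: ctagactgtagtcggaccttttataaaaca
*Tmod2*: cttgtgtctggaatgatagttgtaaattaa
*Tmod3*: tcttttaagaattataatggagaacagtgt
*Tmod4*: agagatgagagcctgggacgcacagatcct

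The *Tcap* probe lies at chr11:98246127-98246186 on the plus strand. The leiomodin probes lie at chr1:137264581-137264640 on the plus strand (*Lmod1*), chr6:24554487-24554546 on the plus strand (*Lmod2*) and chr6:97188607-97188666 on the minus strand (*Lmod3*). Those of the tropomodulins lie at chr4:46127384-46127441 on the plus strand (*Tmod1*), chr9:75413445-75413504 on the minus strand (*Tmod2*), chr9:75346342-75346401 on the minus strand (*Tmod3*) and chr3:94933056-94933115 on the plus strand (*Tmod4*). *Tmod2* and *Tmod3* thus lie near each other on chromosome 9. A run of 20 bases from any of the 8 probes was found in 0 other probes on the array, and none of the 8 spots was saturated or marked as an outlier (a count of 0 for each).

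Signals are given as normalized log2 signal, which is log2 of the background-subtracted intensity minus log2 of the 75th percentile of the same array, so that a difference of 1 between arrays is 2-fold. Differences were read between arrays within a probe. Brightness across probes, which also depends on the probe, served only to choose or name probes of the lists, and in sums over marker lists bright probes weigh most. On each array, between 62.2% and 70.6% of the probes were well above background by the flag of the scanner software. Where a probe was spotted repeatedly, the median SD of its log2 signal within an array was 0.061 to 0.071, an error of spots that leaves out any spread between pools. The whole cochlea was measured, so that fewer cells of a type and less RNA per cell cannot be told apart.

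The OHC markers were checked against the labels first. The summed linear signal of 8 OHC markers, in units of the 75th percentile of the array, was 25.3, 23.4, 25.4 and 6.12 in the order of groups given above. Of these, 4 were lower by 2-fold or more against each of the other 3 arrays (*Ocm*, *Strc*, *Chrna9* and *Chrna10*), beside 0.259% of all probes compared. *Strc*, which encodes stereocilin, was 7.43- to 8.57-fold lower. The probe of prestin itself was not well above background on the DT-treated *Prestin*-*hDTR* array and was at least 1.31- to 1.96-fold lower there.

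On the array of the ablated cochleae, *Tcap* and *Lmod3* were both lower by 2-fold or more against each of the 3 other arrays, and no other member was. This count was 2 of the 6 members that could be compared with all 3 arrays, beside 0.259% of the 25061 such probes, and *Lmod1* and *Lmod2* could not be. The lower signals of *Tcap* and *Lmod3* were known from these arrays when the members were chosen, so that the count describes the members and lends no support to a shared change. In the other direction, 0 of these 6 members were 2-fold or more higher against each of the 3 arrays, against 1.08% of all probes compared. At a threshold of 1.5-fold the members lower against each array were again *Tcap* and *Lmod3*, a count of 2 against 1.14% of all probes compared.

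The normalized log2 signal of *Tcap* was 2.79 (untreated) and 2.59 (DT) in wild-type mice, and 2.70 (untreated) and 1.18 (DT) in *Prestin*-*hDTR* mice. The array of the ablated cochleae lay far below the others, which spanned 0.19 on the log2 scale (1.14-fold). The background-subtracted intensities were 18830, 19074, 19653 and 7053 in the same order. Within *Prestin*-*hDTR* mice, *Tcap* was 2.88-fold lower with DT than without. Against wild-type mice it was 3.05-fold lower (untreated) and 2.67-fold lower (DT). In the wild-type mice the toxin went with a 1.14-fold lower signal, and without toxin the transgene went with a 1.06-fold lower one. The log2 difference with toxin was thus more negative in *Prestin*-*hDTR* than in wild-type mice by 1.33, a value with no test (-1.33 for *Prestin*-*hDTR* minus wild-type). Among the 23688 probes well above background on every array, ordered by the smallest of their 3 falls, *Tcap* had rank 19 from the lowest.

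*Lmod3*, which promotes the growth of thin filaments in skeletal muscle, had a normalized log2 signal of -0.97 (untreated) and -1.0 (DT) in wild-type mice, and of -0.91 (untreated) and -2.06 (DT) in *Prestin*-*hDTR* mice. The first 3 arrays were almost level, within 0.088 on the log2 scale (1.06-fold), and the array of the ablated cochleae stood apart below them. The intensities were 1396, 1586, 1609 and 750. *Lmod3* was 2.22-fold lower with DT than without in *Prestin*-*hDTR* mice, and 2.13-fold (untreated) and 2.09-fold (DT) lower against wild-type mice, which gave rank 40 of 23688. These folds lay close to the threshold of 2-fold. With the normexp background correction, in place of that of the scanner software, they were 2.06, 1.98 and 1.97, so that *Tcap* alone passed against each of the 3 arrays.

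The other 2 leiomodins gave little to compare. *Lmod1* was well above background on both untreated arrays and on neither DT-treated array. That flag was met by 67.0%, 62.5%, 70.6% and 62.2% of all probes in the order of groups, fewer on both DT-treated arrays. The intensities of *Lmod1* were 73.85, 74.03, 85.06 and 76.84, so that in wild-type mice the flag differed at a nearly equal intensity. Its normalized log2 signals were -5.21 (untreated) and -5.42 (DT) in wild-type mice, and -5.15 (untreated) and -5.34 (DT) in *Prestin*-*hDTR* mice. Both DT-treated arrays lay slightly below both untreated ones. In the ablated cochleae, by its own unflagged signal, *Lmod1* was 1.14-fold lower against the untreated mice of the same genotype. Against untreated wild-type mice it was 1.1-fold lower. With the normexp correction the first of these folds was 1.01, so they are not given as lower bounds. *Lmod1* was not compared with the wild-type mice given DT, where it was also dim. *Lmod2* was well above background on 0 of the 4 arrays. Its values were -8.25, -7.80, -8.71 and -7.77 on the same scale, and no fold is given. Whether these relatives of *Lmod3* changed was therefore not detectable for *Lmod2* and rests on signals near background for *Lmod1*.

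**Figure D1:**
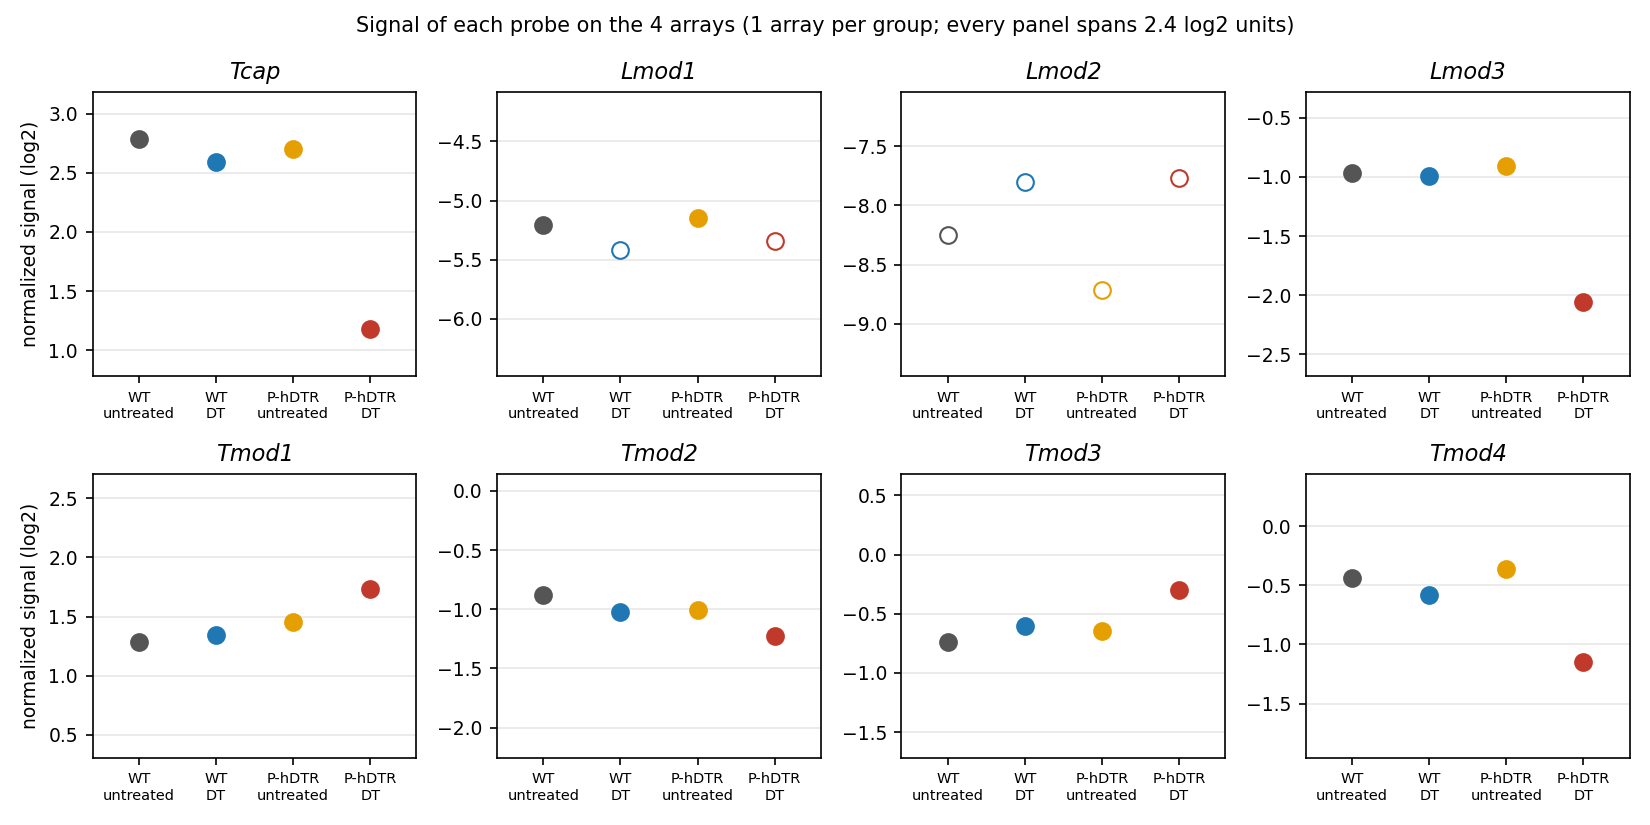
Normalized log2 signal (vertical axis) of the probe of each gene on the 4 arrays (horizontal axis, 1 point per array), with all panels spanning the same range of 2.4 on the log2 scale. Filled points were well above background and open points were not. *Tcap* and *Lmod3* have 3 nearly level arrays and a low DT-treated *Prestin*-*hDTR* array, *Tmod4* has a smaller step of the same direction, and *Tmod1* and *Tmod3* are highest on that array.

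Among the tropomodulins, *Tmod4* was nearest to *Tcap* and *Lmod3*. Its normalized log2 signal was -0.44 (untreated) and -0.58 (DT) in wild-type mice, and -0.36 (untreated) and -1.15 (DT) in *Prestin*-*hDTR* mice. The lowest of the other arrays was 0.57 above that of the ablated cochleae, more than the range of 0.22 that these other arrays spanned. *Tmod4* was 1.73-fold lower with DT than without in *Prestin*-*hDTR* mice, and 1.64-fold (untreated) and 1.48-fold (DT) lower against wild-type mice, and had rank 235 of 23688. It thus did not reach 2-fold in any of the comparisons, and against DT-treated wild-type mice it fell just short of 1.5-fold.

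*Tmod2*, the tropomodulin of neurons, had normalized log2 signals of -0.88, -1.02, -1.01 and -1.23. The array of the ablated cochleae was again the lowest, but by 0.21 on the log2 scale, beside a range of 0.14 among the others. The signal was 1.15- to 1.27-fold lower than on the 3 other arrays.

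*Tmod1* and *Tmod3* lay on the opposite side. *Tmod1*, the pointed-end cap of the red cell membrane skeleton, had normalized log2 signals of 1.28, 1.34, 1.45 and 1.73, and *Tmod3* had -0.73, -0.61, -0.65 and -0.30. Both were highest in DT-treated *Prestin*-*hDTR* mice, by 0.28 and 0.31 above the next array, beside ranges of 0.17 and 0.13 among the others. *Tmod1* was 1.21- to 1.36-fold higher and *Tmod3* 1.24- to 1.35-fold higher than on the 3 other arrays. The step to a lower signal of *Tcap* and *Lmod3* was thus met at a smaller size in *Tmod4*. *Tmod2* was slightly lower and *Tmod1* and *Tmod3* were higher. Within *Prestin*-*hDTR* mice their log2 ratios were -0.22, 0.28 and 0.35, beside an SD of 0.33 over all probes well above background on every array.

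**Figure D2:**
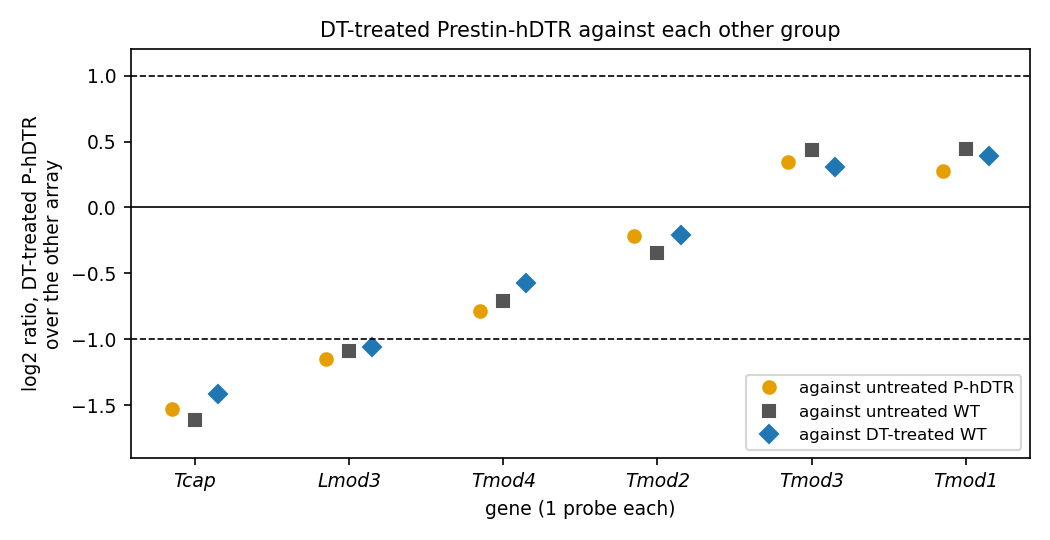
Log2 ratio of DT-treated *Prestin*-*hDTR* mice over each of the 3 other groups (vertical axis; circles, squares and diamonds name the group) for the 6 genes well above background on all arrays (horizontal axis). Dashed lines mark 2-fold, which *Tcap* and *Lmod3* pass in all 3 comparisons, while *Tmod1* and *Tmod3* lie above 0 in all 3.

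Of the 6 members well above background on every array, 4 were lowest and 2 were highest in DT-treated *Prestin*-*hDTR* mice, where 35.2% and 32.9% of all 23688 such probes were. Their median log2 difference from the mean of the 3 other arrays was -0.47, and that of all such probes was -0.0075. Without *Tcap* and *Lmod3*, the other 4 were lowest in 2 and highest in 2 cases, with a median of 0.053. The same 4 members were lowest under each of the 4 other ways of correcting or scaling the arrays that were tried.

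The comparison within *Prestin*-*hDTR* mice had 7 members that could be compared, of which *Tcap* and *Lmod3* were 2-fold or more lower, a count of 2 against 1.35% of all probes, and 0 were higher against 2.49% of all probes. The 2 comparisons without the ablated cochleae gave no such member. After DT in wild-type mice, 0 of the 7 members were lower and 0 were higher, beside 1.09% and 1.46% of all probes. In untreated *Prestin*-*hDTR* against untreated wild-type mice, 0 of the 7 were lower and 0 were higher, beside 2.32% and 1.01%. The log2 ratios of all 23688 probes had an SD of 0.33 in the comparison within *Prestin*-*hDTR* mice, 0.24 in that of DT within wild-type mice and 0.225 in that of the untreated groups.

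**Figure D3:**
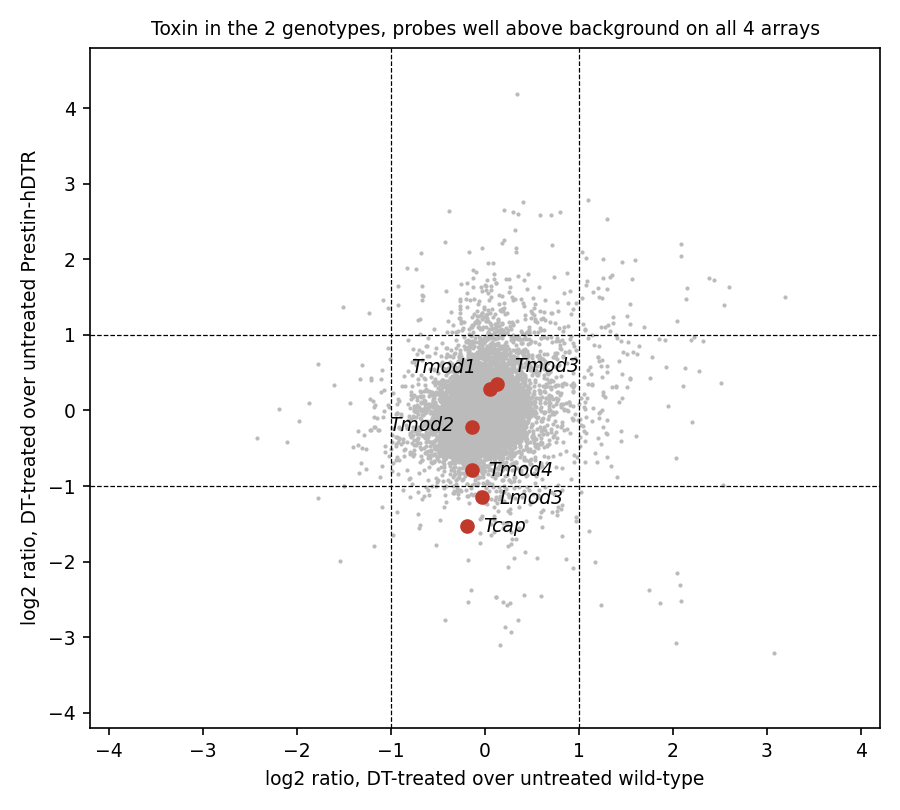
Log2 ratio of DT-treated over untreated mice in wild-type (horizontal axis) and in *Prestin*-*hDTR* mice (vertical axis) for the 23688 probes well above background on all arrays (grey) and for the 6 such members (red). Dashed lines mark 2-fold, and *Tcap* and *Lmod3* lie below the lower line for *Prestin*-*hDTR* mice while staying within 1.14-fold in wild-type mice.

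Lists of muscle and actin genes were read in the same way, with 1 probe per gene, to see where the neighbours of these proteins lay. None of the first 3 of these lists had a gene 2-fold or more lower against each of the 3 arrays (a count of 0 in each), beside the 0.259% of all probes. Of the 21 partners of titin and the Z-disc, 15 were well above background on at least 1 array and 9 on every array. Of these 9, 3 were lowest and 4 were highest in the ablated cochleae, with a median of 0.048 against the mean of the other arrays. Among all probes well above background on every array, 35.2% were lowest and 32.9% were highest there. Titin itself (*Ttn*), to which telethonin binds, was well above background on only 2 of the 4 arrays. *Smpx*, which encodes a small protein of muscle and hair cells and is a human deafness gene, had the most negative difference of this list. Its normalized log2 signal was -0.76, -0.73, -0.45 and -1.38, or 1.54- to 1.91-fold lower on the last array. A second *Smpx* probe was dim on all arrays. The largest positive difference was that of *Trim63*, a ubiquitin ligase of muscle, with signals of -3.85, -3.72, -3.59 and -3.35. *Cryab*, a small heat shock protein and the brightest probe of the list, had 5.30, 5.30, 5.31 and 5.61.

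Of 18 genes of the sarcomeric thin filament, 14 were measured on at least 1 array and 10 on every array. Of these 10, 4 were lowest and 4 highest in DT-treated *Prestin*-*hDTR* mice, with a median of -0.12, beside 35.2% and 32.9% of all such probes. *Tnnt1*, the troponin T of slow muscle, had 0.19, -0.01, 0.04 and -0.59 and was 1.5- to 1.72-fold lower. Its second, dimmer probe moved the same way (-3.64, -3.71, -3.56 and -4.18). *Klhl40*, whose product stabilises leiomodin 3 in skeletal muscle, went the other way from *Lmod3*, with a dim signal of -4.64, -5.04, -4.85 and -4.13. *Neb*, which encodes nebulin along the thin filament, had -3.31, -4.00, -4.37 and -4.35, so that the ablated cochleae were level with untreated *Prestin*-*hDTR* mice and the untreated wild-type array was the highest. Another *Neb* probe well above background on every array had -5.12, -5.0, -5.02 and -5.23, without that difference between the untreated groups. *Cfl2*, the cofilin of muscle and the brightest probe of the list, had 1.83, 1.72, 1.79 and 1.92.

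The 24 regulators of actin filament ends, among them capping proteins, adducins, tropomyosins, cofilins and actin itself, were all well above background on every array. In DT-treated *Prestin*-*hDTR* mice, 15 of the 24 were highest and 4 were lowest, with a median of 0.16, beside 32.9% highest and 35.2% lowest among all such probes. The largest positive difference was that of *Add2*, an adducin of the red cell membrane skeleton, which had -3.82, -2.97, -3.94 and -3.17 and was high on both DT-treated arrays. *Gsn*, which encodes the severing and barbed-end capping protein gelsolin, had 5.21, 5.24, 5.25 and 5.60, and its second probe 5.00, 4.98, 4.99 and 5.52. The most negative difference was that of *Spire2*, an actin nucleator, with -2.93, -3.11, -2.97 and -3.32. *Actb*, which encodes beta-actin and was the brightest probe of the list, had 6.84, 6.65, 6.67 and 6.82. The direction of *Tmod1* and *Tmod3* was thus that of most genes of this list, while *Tcap*, *Lmod3* and *Tmod4* lay outside the range of its differences.

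**Figure D4:**
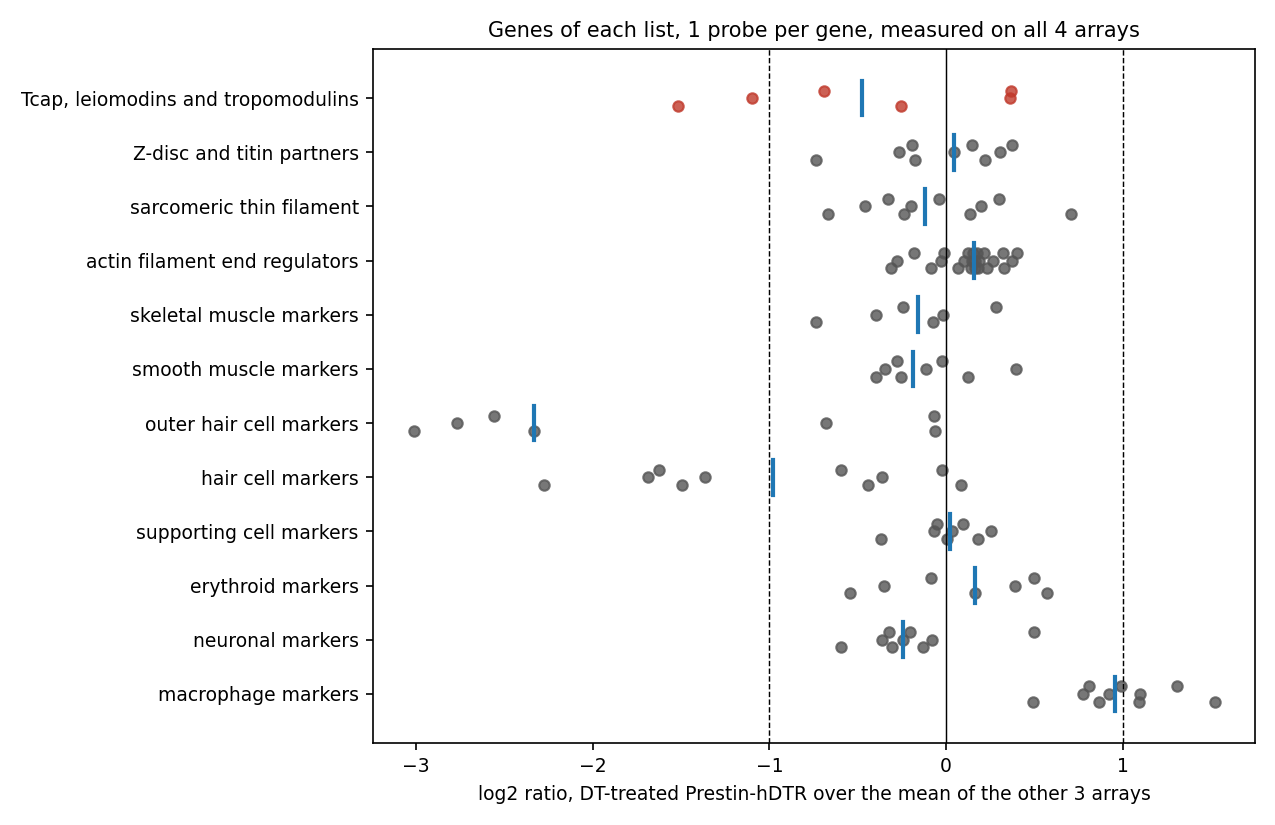
Log2 ratio of DT-treated *Prestin*-*hDTR* mice over the mean of the 3 other arrays (horizontal axis) for each gene of 12 lists (rows) measured well above background on every array. Points are genes, blue bars are medians, and dashed lines mark 2-fold. *Tcap* and *Lmod3* lie beyond the left line, the other muscle and actin lists lie within both lines, and OHC markers have a median of -2.33.

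Markers of other cell types moved along with these values in part. Of 15 skeletal muscle markers, 10 were measured and 6 were so on every array. Of these 6, 4 were lowest and 1 was highest in the ablated cochleae, with a median of -0.16. Among all probes well above background on every array, 35.2% were lowest and 32.9% were highest there. The summed linear signal of the list was 3.35, 3.02, 3.16 and 2.62. *Ckm*, *Myh1*, *Myh2*, *Ryr1* and *Ampd1* of the same list were well above background on 0 of the 4 arrays. The most negative difference was that of *Myl1*, a myosin light chain of fast muscle, which had -0.71, -0.87, -0.66 and -1.48 and was 1.52- to 1.77-fold lower. *Pygm* (0.28, -0.06, 0.07 and -0.30) was 1.18- to 1.5-fold lower, and the dim *Mylpf* 1.11- to 1.28-fold lower. The most positive was that of *Atp2a1*, the calcium pump of fast muscle, with -3.82, -3.89, -3.46 and -3.44, while *Eno3* and *Cacna1s* differed from the mean of the other arrays by -0.075 and -0.018. None of the 7 markers that could be compared with all 3 arrays was 2-fold lower against each (a count of 0), beside 0.259% of all probes. The 8 smooth muscle markers, which bear on *Lmod1*, had summed signals of 9.97, 9.43, 10.1 and 9.80. In the ablated cochleae 3 of them were lowest and 2 were highest, with a median of -0.18, beside the same 35.2% and 32.9%.

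The 10 hair cell markers include *Slc17a8*, the study's marker of inner hair cells, 1.28- to 1.46-fold lower in the ablated cochleae by its brighter probe. Their summed signals were 5.41, 6.97, 7.18 and 3.42. By 1 probe per gene, 5 of them were 2-fold or more lower against each array, beside 0.259% of all probes compared. Against untreated wild-type mice, *Gfi1* and *Lhx3* passed narrowly (2.04- and 2.03-fold), and the 3 other arrays spanned 1.05 and 0.94 on the log2 scale for them. *Barhl1*, a hair cell transcription factor, was not among the 5 by its brighter probe (-1.5, -1.5, -1.70 and -1.59). Its other probe was lower (-3.46, -3.15, -3.21 and -5.17), and by that probe the count would be 6. Conversely, a second probe of the OHC marker *Chrna9* was nearly level (-4.13, -4.32, -4.37 and -4.49). Neuronal markers, which bear on *Tmod2*, numbered 9, with summed signals of 163, 138, 150 and 130. Of these, 7 were lowest in DT-treated *Prestin*-*hDTR* mice, beside 35.2% of all probes well above background on every array, and 1 (*Prph*) was highest. That count of 7 was 6 with median scaling and 8 with quantile normalization. The median log2 difference of the neuronal list with DT was -0.29 in wild-type and -0.26 in *Prestin*-*hDTR* mice. The 12 erythroid markers, which bear on *Tmod1*, had summed signals of 3.25, 7.60, 3.37 and 4.40. Of these, 8 were 2-fold or more higher after DT in wild-type mice, beside 1.46% of all probes, and *Tmod1* differed by 1.04-fold there. After DT in *Prestin*-*hDTR* mice 5 of them were 2-fold or more higher, beside 2.49% of all probes. The 10 macrophage markers had summed signals of 19.4, 18.5, 16.7 and 32.4. All 10 were highest in DT-treated *Prestin*-*hDTR* mice, beside 32.9% of all probes well above background on every array. Of them, 4 were 2-fold or more higher against each array, beside 1.08% of all probes compared. The 8 supporting cell markers had summed signals of 129, 122, 128 and 143. In the ablated cochleae 1 of them was lowest and 3 were highest, with a median of 0.021, beside 35.2% lowest and 32.9% highest among all such probes. The part of these cell types in the signals of *Tcap*, the leiomodins and the tropomodulins was not tested.

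Finally, probes with the signal pattern most like that of *Tcap* and of *Lmod3* were sought among the 23688, by the root mean square difference of log2 profiles, each centred on its mean over the 4 arrays. For *Tcap*, the nearest named genes were *Elovl2* at a difference of 0.119, *Grxcr2* at 0.122, *Slc8a2* at 0.138, *Zp1* at 0.139 and *Pou4f3* at 0.141. *Elovl2*, an enzyme of fatty acid elongation, had a normalized log2 signal of -3.32, -3.80, -3.47 and -4.91. *Grxcr2*, which encodes a protein of the stereocilia base, had -2.15, -2.05, -2.0 and -3.45. *Slc8a2*, a sodium-calcium exchanger, had -1.37, -1.28, -1.22 and -2.61. The remaining named genes were *Zp1*, which encodes a protein of the egg coat and lay between -1.60 and -1.5 on the first 3 arrays and at -2.87 on the fourth, and *Pou4f3*, a transcription factor of hair cells, with -2.68, -2.49, -2.49 and -4.05. For *Lmod3*, the nearest were *Clrn2* at 0.029, *Acbd7* at 0.035, *Gpr137c* at 0.039, *Fscn2* at 0.050 and *Klhl14* at 0.055. *Clrn2*, which encodes a clarin, had -3.37, -3.41, -3.38 and -4.46, and *Acbd7*, an acyl-CoA binding protein, had 1.61, 1.63, 1.75 and 0.52. *Gpr137c* had -3.96, -4.09, -3.98 and -5.09. *Fscn2*, an actin bundling protein of stereocilia, had -2.78, -2.84, -2.69 and -3.77, and *Klhl14* had -0.49, -0.54, -0.53 and -1.71. All of these were lowest on the array of the ablated cochleae, as the search for like patterns fixes. In each case 2 probes nearer than the last of the 5 named genes had no RefSeq name. *Tcap* and *Lmod3* differed from each other by 0.191, since *Tcap* was the lower of the pair in DT-treated *Prestin*-*hDTR* mice relative to its own mean. These likenesses rest on 4 arrays and describe them only.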

How the data were processed

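Cochlear RNA of 4 groups was measured with 1 single-colour Agilent array each. The authors deposited the output of Agilent Feature Extraction 11.5.1.1, and the intensity in it is linear, background-subtracted and not scaled between arrays. Raw mean and background intensity, which the authors also deposited, entered the normexp alternative alone. A table of scaled intensity that the authors deposited equals the processed intensity divided by 1 constant per array and was used as an alternative.

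Control and outlier spots were left out, spots of a probe were averaged when repeated, and each array was scaled to its 75th percentile (log2), the percentile shift of the study's methods. Comparisons took the probes that 1 or more of their arrays flagged well above background. Where an array did not flag a probe, the larger of its own signal and the lowest flagged signal of the array was used. A fold is written as "at least" where that lowest flagged signal was the one used. Changes were screened at 2-fold. For lists, the brightest measured probe stood for a gene. Gene names came from the RefSeq table (GRCm38.p6) for 29803 probes matched on symbol, 1635 on accession and 295 on synonym, and the array files named the remaining 7696.

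The members, the 11 other lists and the alternatives were chosen with earlier results of these data known. By rule, all members, for each list the extremes and the brightest gene, and the 5 genes nearest to *Tcap* and to *Lmod3* were named, and *Ttn*, *Neb*, *Gsn*, the marker genes named and the second probes were picked after their values were seen. Steps were tested on simulated data. Tools were R 4.3.3 with limma 3.58.1, and Python 3.11.15 with pandas 2.3.3, numpy 2.4.6 and matplotlib 3.10.9.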

Additional observations from a re-analysis of the deposited data

How the results depend on the processing

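The 12 results, all log2 ratios of members but for 1 count, were recomputed under 8 alternatives for background, scaling, source, filter, probe choice and threshold. Of 73 values, 24 came from 3 filters and probe choices that returned the reported value exactly and say nothing of stability, each member having 1 probe. Of the other 49, 46 stayed within 0.101 on the log2 scale or within 1.5 times the count, 3 moved further, and 0 reversed. All 3 came from the normexp correction. There the log2 ratio of *Lmod3* between DT-treated and untreated *Prestin*-*hDTR* mice was -1.04, the count of members 2-fold lower against each array was 1 (*Tcap*), and that ratio of *Lmod1* was -0.015. The same ratio ranged from -1.53 to -1.51 for *Tcap*, from -1.16 to -1.04 for *Lmod3*, from -0.79 to -0.75 for *Tmod4* and from -0.23 to -0.21 for *Tmod2*, and from 0.27 to 0.29 for *Tmod1* and from 0.34 to 0.36 for *Tmod3*. The ratios of the ablated cochleae against wild-type mice were not among the 12 results. Against untreated wild-type mice, the normexp correction gave -0.56 for *Tmod4* in place of -0.71, and -0.99 for *Lmod3* in place of -1.09. The cause was not tested. No paired analysis was possible because each group has 1 array. *Lmod1* and *Lmod2* are limited by their signal over background.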
